A study of Mus musculus with 13 samples.

Results

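Sertoli cells taken from the testis of 8-week-old mice and grown in culture were set against the whole male gonad at 14.5 days post coitum (dpc), which was not cultured. The comparison used 4 of the 13 arrays of the study, 2 for each group, chosen by their labels. A measured feature entered if its annotation named a gene and if it lay above the array median on at least 2 of the 4 arrays. Of 31465 named features, 23552 entered (74.9%), and they gave 15664 of the 20738 genes on the array. Of the features that entered, 1663 were above the median on both mature arrays and on no gonad array, and 1592 on both gonad arrays and on no mature array, so that a difference between the groups was part of how these entered.

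Both groups were wild type mouse material without a transgene. The mature Sertoli cells (mature cultures) had spent 7 days in DME medium with 10% fetal bovine serum, and RNA of each sample was hybridised to 1-colour Agilent arrays with Cy3. Immature Sertoli cells from 19 dpc testis, grown for 3 days in the same serum (2 arrays), served as the other cultured Sertoli group. The remaining arrays of the study held embryonic and tail tip fibroblasts and the induced Sertoli-like cells made from them. The sources used here do not give how the Sertoli cells were purified, how many animals were pooled or whether replicates came from separate animals or cultures. The p-values thus reflect array-to-array spread alone, which may be technical. Age (8 weeks against 14.5 dpc), culture (7 days against none) and tissue (a cell preparation against a whole organ) differ together, and their parts cannot be told apart. In such mixed samples, fewer cells of a type and less RNA per cell cannot be told apart either.

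Sertoli cells are the somatic cells that enclose the germ cells in the seminiferous tubules. In the fetal testis they divide, express Sox9 and anti-Müllerian hormone and send signals such as desert hedgehog to the neighbouring Leydig cells, which make androgens. Around puberty they stop dividing, lose anti-Müllerian hormone, form tight junctions that close the blood-testis barrier, and feed and clear the germ cells that pass through meiosis and become spermatids. The 14.5 dpc gonad holds, beside fetal Sertoli cells, germ cells that are leaving the pluripotent state, Leydig cells, blood vessels with nucleated red cells, and mesenchyme.

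All levels below are log2 signal, and all differences are mature minus gonad on the log2 scale, with the standard error of the fit and n = 2 arrays in each group. The array median was 7.488 on every array, and a level near or under it is dim by rank, so the size of a difference against such a level is uncertain, as the background level is unknown. Replicate arrays lay 0.146 (mature) and 0.182 (gonad) apart as a root mean square over the genes tested, against 1.63 between the means of the groups. The summed signal of 11 Sertoli markers was 19.12 and 19.14 on the mature arrays and 18.95 and 19.00 on the gonad arrays, and in the mature cultures only Amh lay under the array median. Of all 15664 genes tested, only 1049 had a mature mean under the array median. Lying above it therefore does not set the Sertoli markers apart, and cell identity was not tested. The summed signal of 6 peritubular and smooth muscle markers was 19.89 and 19.90 on the mature arrays and 16.44 and 16.35 on the gonad arrays.

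Limma called 12995 genes at an adjusted p under 0.05 (83.0%), of which 5784 were higher in the mature cultures (36.9%) and 7211 lower (46.0%). Because replicates lay so close, small differences were called too, and the 2 arrays of one group lay wholly on one side of the other group's for 93.5% of genes. In what follows, a gene rose or fell only if it was called and also differed by at least 1 log2 unit. By that rule 2874 genes rose (18.3%) and 2994 fell (19.1%), and these shares are the background for every list below. The lists were chosen with earlier results of these data known, so a list share set beside this background describes the list and tests nothing. Some genes are in more than 1 list, so the lists are not separate results. A member with a mean under the array median in 1 group needed the other group's arrays to enter, so its difference is partly how it entered. The median difference of all genes tested was -0.12. With each array centred on its median over the genes tested, 3032 rose and 2757 fell.

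**Figure D1:**
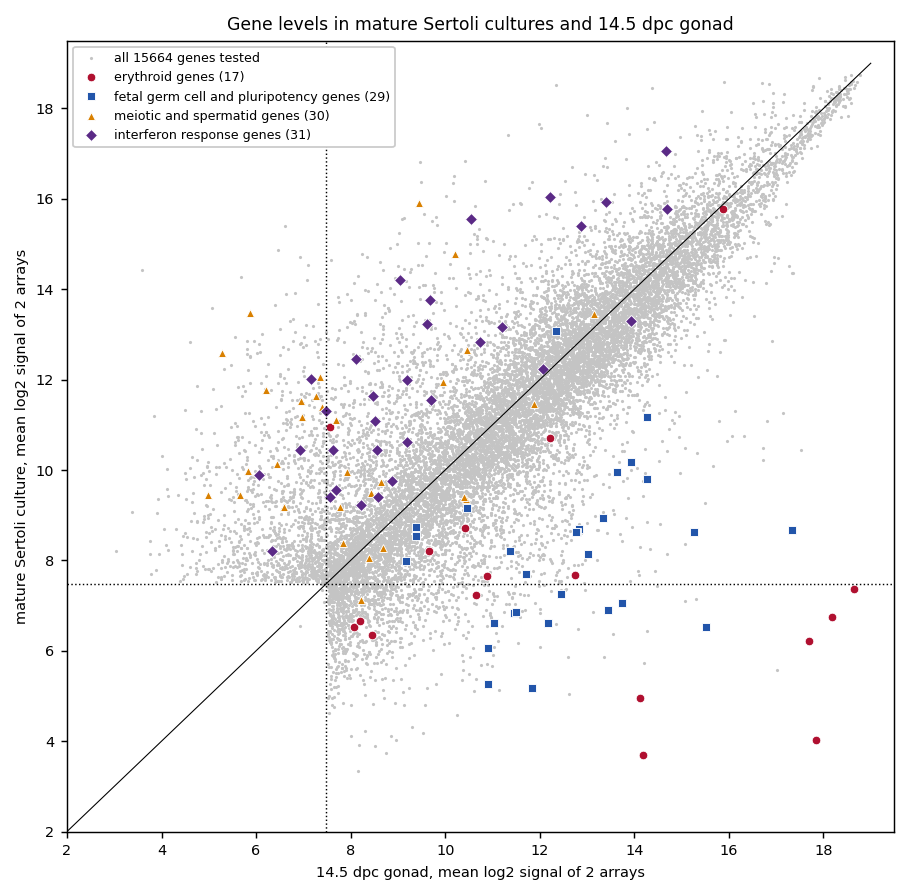
Mean log2 signal of the 2 gonad arrays (x axis) and the 2 mature Sertoli arrays (y axis) for the 15664 genes tested in grey, with 4 gene lists in colour. Dotted lines mark the array median of 7.488 and the solid line marks equal levels. Erythroid and fetal germ cell genes lie mostly under the line, and meiotic, spermatid and interferon response genes mostly over it.

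The largest rises included genes of the germ line, of inflammation and of matrix. Clec2m, a C-type lectin gene, read 14.48 and 14.36 on the mature arrays and 3.74 and 3.44 on the gonad arrays. The gonad arrays were far under the array median and did not overlap the mature arrays, and the difference was 10.83 ± 0.40 (adjusted p = 2.27e-08). Cxcl14, a chemokine, read 17.65 and 17.64 on the mature arrays and 7.98 and 8.03 on the gonad arrays, a rise of 9.64 ± 0.11. Saa3, an acute phase protein, read 15.26 and 15.53 on the mature arrays and 6.41 and 6.82 on the gonad arrays, a rise of 8.78 ± 0.17. In both genes the mature arrays were among bright signals and the gonad arrays near or under the median. Plaat5, of a family of phospholipid acyltransferases, Pabpc2, a testis poly(A)-binding protein, and Klra4, of the Ly49 receptor family, rose by 8.58 ± 0.51, 8.51 ± 0.30 and 8.23 ± 0.13. A further feature of Klra4 rose by 3.40, so its size is uncertain, and the Ly49 genes are near copies of each other. Spata46, a spermatid gene, rose by 7.35 ± 1.28, but its gonad arrays were wide apart at 1.93 and 5.74.

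The largest falls were globins. Hbb-bt, an adult beta globin, read 3.52 and 4.51 on the mature arrays and 17.79 and 17.89 on the gonad arrays, a fall of 13.82 ± 0.37 (adjusted p = 3.09e-09). Dppa3, a germ cell and oocyte factor, fell by 8.98 ± 0.76. Igfbp5, which binds insulin-like growth factors, read 7.08 and 7.19 on the mature arrays and 15.26 and 15.35 on the gonad arrays, a fall of 8.17 ± 0.06, and Col26a1, a collagen gene, fell by 7.98 ± 0.18. In each of these the gonad arrays were bright and the mature arrays under the array median. Cbln1, a secreted cerebellin, fell by 8.47 ± 0.39 on the brightest feature and by 2.75 on another.

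**Figure D2:**
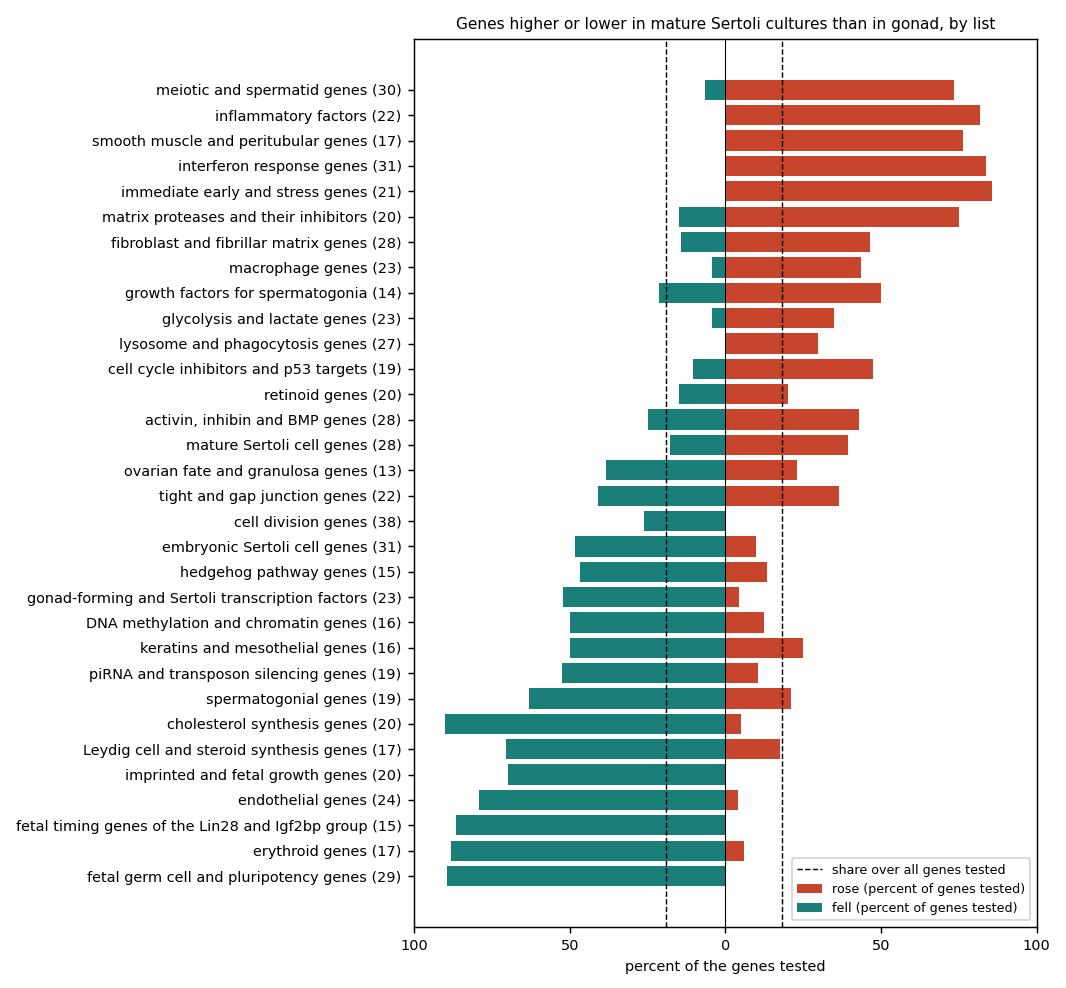
Percent of the genes tested in each of 32 lists that rose (red, to the right) or fell (green, to the left) in the mature cultures, with the number tested in brackets and the lists ordered by median difference. Dashed lines mark the shares over all genes tested, 18.3% and 19.1%.

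The transcription factors that build the gonad and specify Sertoli cells were mostly well above the array median in both groups. Of 23 tested (25 listed), 1 rose, 12 fell and the median difference was -1.03. Sox9, the factor that commits cells to the Sertoli fate, read 12.84 and 12.74 on the mature arrays and 12.34 and 12.25 on the gonad arrays. The mature arrays were higher without overlap, by 0.49 ± 0.07 (adjusted p = 1.55e-04), which is under 1 log2 unit. Wt1, which maintains Sertoli identity, read 15.36 and 15.49 on the mature arrays and 15.86 and 15.88 on the gonad arrays and was lower by 0.45 ± 0.06 (adjusted p = 1.79e-04). Gata4, a partner of Nr5a1 at gonadal promoters, was lower by 0.46 ± 0.15 (adjusted p = 0.0167), but without mature replicate 1 or gonad replicate 2 the adjusted p was 0.0925 or 0.0863. Dmrt1, a factor of male fate in Sertoli and germ cells, was lower by 0.61 ± 0.08. Nr5a1, which drives steroid and Amh genes, read 14.26 and 14.33 on the mature arrays and 15.71 and 15.76 on the gonad arrays and fell by 1.44 ± 0.09 (adjusted p = 4.55e-07). Lhx9, a factor of the early gonadal surface, and Sox10, a relative of Sox9, fell by 2.88 ± 0.13 and 3.20 ± 0.08.

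Gata1 was the 1 factor that rose. It is known from red cell differentiation and is also expressed by Sertoli cells after birth. Its level was 13.40 and 13.52 on the mature arrays and 8.80 and 8.67 on the gonad arrays, a rise of 4.73 ± 0.63 (adjusted p = 1.13e-04). In Gata1 the mature cultures were also above the immature cultures, which read 9.81 and 9.99, by 3.56 ± 0.63 (adjusted p = 9.85e-04). The summed signal of 5 erythroid markers was 11.10 and 11.13 on the mature arrays and 18.96 and 19.03 on the gonad arrays. Which cells gave the Gata1 signal was not tested.

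Products of embryonic Sertoli cells were lower as a group, with 3 of 31 rising, 15 falling and a median of -0.94. For 3 of the 31 the mature mean lay under the array median, so they needed the gonad arrays to enter and a fall is partly how they entered. Amh, the hormone that removes the Müllerian ducts, read 6.95 and 6.22 on the mature arrays and 12.33 and 12.36 on the gonad arrays. The gonad arrays were bright, the mature arrays lay under the array median, and the fall was 5.76 ± 0.19 (adjusted p = 1.10e-08). Dhh, the hedgehog ligand of Sertoli cells, was lower by 0.94 ± 0.06 (adjusted p = 1.16e-06), so it missed 1 log2 unit and remained bright at 14.91 and 15.01. Inha, the alpha subunit of inhibin, fell by 2.07 ± 0.06, and Col9a3, a collagen IX chain, by 4.05 ± 0.21. The 3 that rose, named here after their values were seen, were Kitl, the ligand of Kit, Gatm, an enzyme of creatine synthesis, and Slc43a3, a transporter, with rises of 1.34, 1.42 and 1.25.

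A few embryonic products were lower than in the gonad but higher than in the immature cultures. Ptgds, the prostaglandin D synthase that acts upstream and downstream of Sox9, read 14.38 and 14.43 on the mature arrays and 16.88 and 16.90 on the gonad arrays, and 12.65 and 12.65 on the immature arrays. The 3 groups did not overlap, with the gonad highest and the immature cultures lowest. The mature cultures were 2.49 ± 0.06 under the gonad and 1.75 ± 0.06 above the immature cultures (adjusted p = 3.71e-08). Cst9, the cystatin testatin of fetal Sertoli cells, showed the same order, 4.07 ± 0.61 under the gonad and 5.43 ± 0.61 above the immature cultures. Cyp26b1, which degrades retinoic acid and so delays meiosis in the fetal testis, was 3.19 ± 0.08 under the gonad and 1.88 ± 0.08 above the immature cultures. Both differences of each gene use the same mature arrays.

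Genes of differentiated Sertoli cells were mixed, with 11 of 28 tested rising and 5 falling (29 listed, median 0.32). Cldn11, the claudin of the blood-testis barrier, read 15.59 and 15.63 on the mature arrays and 11.96 and 11.99 on the gonad arrays. Both mature arrays were far above both gonad arrays, and the rise was 3.63 ± 0.06 (adjusted p = 1.54e-10), while the immature cultures read 15.43 and 15.50. Trf, transferrin, which carries iron to germ cells, rose by 1.91 ± 0.08. Defb36, a beta-defensin, Cst12, a cystatin, and Drd4, a dopamine receptor, rose by 4.54 ± 0.23, 4.47 ± 0.11 and 4.01 ± 0.10. Clu, clusterin, a main secreted glycoprotein of Sertoli cells, was bright in both groups and higher by 0.65 ± 0.09.

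Rhox5, an androgen-regulated homeobox gene, and Fshr, the receptor of follicle-stimulating hormone, went the other way or were not called. Rhox5 read 13.37 and 13.46 on the mature arrays and 16.46 and 16.58 on the gonad arrays, a fall of 3.11 ± 0.09 (adjusted p = 4.28e-09), and the immature arrays were lower still at 10.15 and 10.26. Fshr read 7.86 and 7.74 on the mature arrays and 8.78 and 8.72 on the gonad arrays, near the array median, and its difference of -0.95 ± 0.52 was not called (adjusted p = 0.121). When only the 4 arrays were fitted, Fshr was called (adjusted p = 3.95e-05). Wnt5a, Sox8, Gja1 and Corin, named after their values were seen, also fell, by 1.76, 1.59, 1.44 and 1.19.

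**Figure D3:**
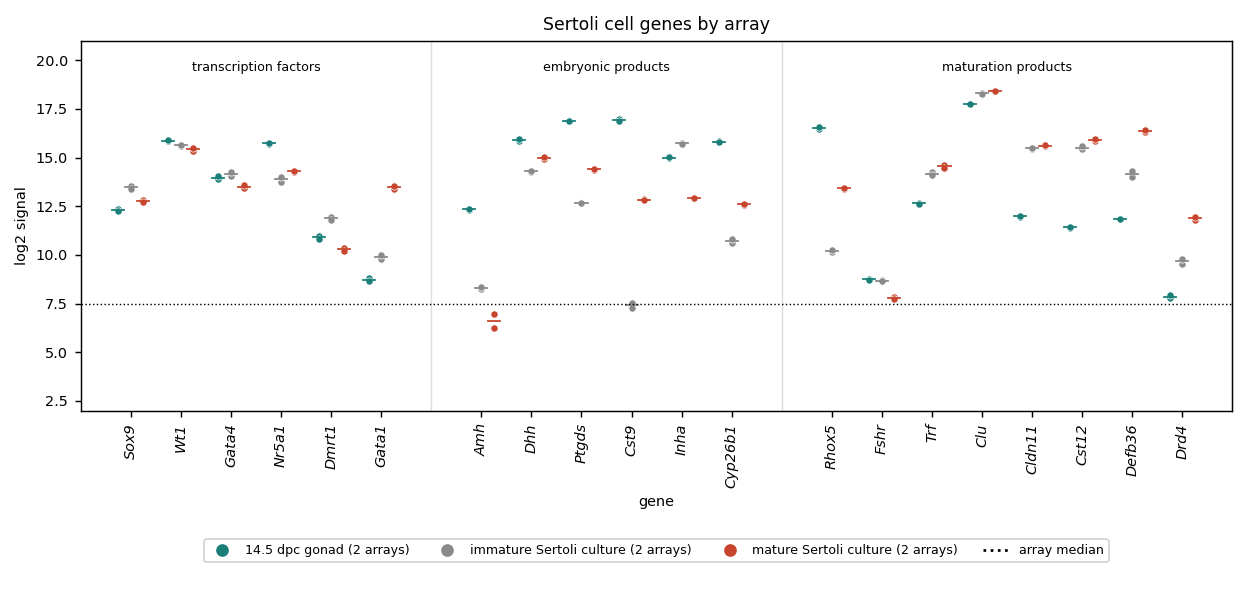
Log2 signal of 20 Sertoli cell genes on each array of the gonad (green), the immature cultures (grey) and the mature cultures (red), with a short line at the mean of 2 arrays and a dotted line at the array median. Amh lies under the median in the mature cultures, Cldn11, Cst12, Defb36, Drd4 and Gata1 lie above the gonad, and Ptgds, Cst9, Cyp26b1 and Rhox5 lie between the gonad and the immature cultures.

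Growth factor genes differed in both directions, and which cells of the samples express them was not tested. Among activin, inhibin and BMP genes, 12 of 28 rose and 7 fell (median 0.36). Amh, given above among the embryonic products, was counted in this list too. Fstl3, an extracellular antagonist of activin, read 15.02 and 15.03 on the mature arrays and 9.99 and 10.06 on the gonad arrays, a rise without overlap (adjusted p = 3.98e-10). Bmp7, a BMP ligand, fell by 4.28 ± 0.10. Of 14 tested growth factors that act on spermatogonia (17 listed), 7 rose and 3 fell (median 0.72). Csf1, the macrophage colony-stimulating factor, which also promotes renewal of spermatogonial stem cells, read 16.86 and 16.79 on the mature arrays and 9.51 and 9.42 on the gonad arrays, a rise of 7.36 ± 0.08 (adjusted p = 4.60e-11). Lif, a cytokine of the interleukin-6 family, rose by 3.06 ± 0.27, and Wnt6, a Wnt ligand, fell by 3.32 ± 0.11. The 3 that fell were Wnt6, Wnt5a and Nrg1, the last chosen after its value was seen, with a fall of 1.26.

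Hedgehog pathway genes fell in 7 of 15 tested and rose in 2 (median -0.94). Gli1, the target gene by which pathway activity is commonly read, was 8.82 and 8.78 on the mature arrays and 14.53 and 14.56 on the gonad arrays. The gonad arrays were bright and the mature arrays dim, with a fall of 5.74 ± 0.07 (adjusted p = 7.72e-11), and the immature arrays were also dim at 8.52 and 8.59. Hhip, a decoy receptor and target, and Cdon, a co-receptor, fell by 4.61 ± 0.07 and 2.97 ± 0.06. The rises, named after their values were seen, were Sufu and Disp1, which restrain Gli factors and release the ligand, by 1.28 and 1.42. The ligand Dhh differed by -0.94 ± 0.06, as given above. Leydig cells, in which Dhh acts, had lower marker signal in the same arrays, and their part in these falls was not tested.

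Leydig cell and steroid synthesis genes fell in 12 of 17 tested and rose in 3 (22 listed, median -2.21). For 4 of the 17 the mature mean lay under the array median, so they needed the gonad arrays to enter and a fall is partly how they entered. Hsd3b1, the enzyme that makes progesterone, read 10.48 and 10.50 on the mature arrays and 16.71 and 16.72 on the gonad arrays, a fall of 6.22 ± 0.14 (adjusted p = 1.10e-09). Cyp17a1, which makes androgens from progestins, read 11.29 and 10.89 on the mature arrays and 16.78 and 16.82 on the gonad arrays, a fall of 5.71 ± 0.16. In both genes the gonad arrays were among the brighter signals and the mature arrays stayed above the array median. Hsd17b3, which in the fetal mouse testis is expressed by Sertoli cells and completes testosterone, fell by 6.32 ± 0.16. Star, which carries cholesterol into mitochondria, read 13.50 and 13.42 on the mature arrays and 13.91 and 13.88 on the gonad arrays and was lower by only 0.43 ± 0.06 (adjusted p = 1.03e-04). The mature cultures lay 1.54 ± 0.06 above the immature cultures in Star. The 3 that rose, named after their values were seen, were Thbs2, Akr1c14 and Gsta3, by 5.31, 2.91 and 1.96.

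Red cell and vessel genes were much lower. Of 17 erythroid genes tested (22 listed), 15 fell and 1 rose (median -3.23). For 10 of the 17 the mature mean lay under the array median, with the same limit as for dim levels given above. Those 10 needed the gonad arrays to enter, so a fall is partly how they entered. Hba-a1, the adult alpha globin, read 6.54 and 6.93 on the mature arrays and 18.14 and 18.24 on the gonad arrays, a fall of 11.45 ± 0.13, and Hbb-y, an embryonic beta globin, read 6.42 and 6.01 on the mature arrays and 17.68 and 17.70 on the gonad arrays, a fall of 11.48 ± 0.21. All mature arrays were under the array median for both. The globin genes are near copies of each other, so signal may be shared between their features. The 1 that rose, named after its value was seen, was Sptb, erythroid beta spectrin (3.40), which muscle and brain also express. Of 24 endothelial genes, 19 fell and 1 rose (median -2.71), and for 6 of the 24 the mature mean lay under the array median. Those 6 also needed the gonad arrays to enter. Cldn5, the endothelial claudin, Mmrn2, an endothelial matrix protein, and Tie1, a vascular receptor kinase, fell by 4.95 ± 0.07, 4.55 ± 0.07 and 4.53 ± 0.14. Pecam1, the adhesion molecule that defines endothelium, read 8.17 and 8.18 on the mature arrays and 10.31 and 10.30 on the gonad arrays, a fall of 2.13 ± 0.09. Ecscr was the 1 that rose (1.71).

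Fetal germ cell genes fell almost throughout. Of 29 tested (30 listed), 26 fell and 0 rose (median -4.43). For 11 of the 29 the mature mean lay under the array median, so they entered the test through the gonad arrays and their fall is partly how they entered. Dppa5a, a pluripotency-associated gene, read 8.77 and 8.60 on the mature arrays and 17.41 and 17.27 on the gonad arrays, a fall of 8.66 ± 0.11 (adjusted p = 8.29e-11). Pou5f1, the pluripotency factor Oct4, read 6.64 and 6.58 on the mature arrays and 12.10 and 12.26 on the gonad arrays, a fall of 5.57 ± 0.09. The mature arrays were under the array median for Pou5f1 and over it for Dppa5a. Neither gene overlapped between groups, as 93.5% of all genes did not. Nanos2, which sets the male germ cell fate, fell by 6.68 ± 0.13. Ddx4, the germ cell helicase Vasa, fell by 3.09 ± 0.41 but stayed above the array median on both mature arrays. Of 19 spermatogonial genes tested, 12 fell and 4 rose (median -1.70). Nanos2 was counted in this list too, so it and the fetal germ cell list are not separate results. For 4 of the 19 the mature mean lay under the array median, so they needed the gonad arrays to enter and a fall is partly how they entered. Kit, the receptor of differentiating spermatogonia, and Cdh1, E-cadherin, fell by 4.13 ± 0.12 and 3.70 ± 0.35. The 4 that rose, named after their values were seen, were Thy1, Uchl1, Zbtb16 and Ccnd2, by 2.36, 1.61, 1.44 and 1.22. Thy1 and Ccnd2 are also expressed by other cell types.

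Genes of meiosis and of spermatids showed the opposite change. Of 30 tested, 22 rose and 2 fell (median 3.01), and 13 of the 30 had a gonad mean under the array median. Those 13 entered through the mature arrays, so their rise is partly how they entered. With the stricter filter at the 75th percentile of the array, 13 rose and 0 fell. Ldhc, the lactate dehydrogenase of spermatocytes and sperm, read 15.96 and 15.84 on the mature arrays and 9.49 and 9.42 on the gonad arrays, 9.00 and 8.94 on the immature arrays, and rose over the gonad by 6.44 ± 0.24 (adjusted p = 2.46e-08). Prm1, the protamine that packs sperm DNA, read 12.01 and 12.11 on the mature arrays and 7.42 and 7.26 on the gonad arrays, a rise of 4.72 ± 0.16. Both genes were high on the mature arrays and low on the gonad and immature arrays. Adam3, a sperm surface protein, and Smcp, a protein of the sperm mitochondrial capsule, rose by 7.61 ± 0.38 and 7.33 ± 0.49, although another feature of Adam3 rose by 3.46. The 2 that fell were Sycp1 and Sycp2 of the synaptonemal complex, named after their values were seen (1.06 and 1.09), and 1 fell when any 1 of the 4 arrays was left out.

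Between the mature and immature cultures, 70.6% of all genes were called, and by at least 1 log2 unit 12.6% were higher and 8.82% lower in the mature. Of these 30 genes, 21 were higher by that measure and 1 lower. The 1 that was lower was Stra8, the retinoic acid target that precedes meiosis. It read 12.72 and 12.57 on the mature arrays and 10.52 and 10.39 on the gonad arrays, but 16.71 and 16.49 on the immature arrays, so that the mature cultures were 2.19 ± 0.24 above the gonad and 3.95 ± 0.24 below the immature cultures. The summed signal of 8 meiotic and spermatid markers was 16.32 and 16.23 on the mature arrays, 12.41 and 12.25 on the gonad arrays, and 12.57 and 12.41 on the immature arrays. All 8 were above the array median in the mature cultures and 2 in the gonad. A preparation from adult testis can hold germ cells, and their part in these rises was not tested.

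Of 19 genes tested that make or use piRNAs, small RNAs that silence transposons in germ cells, 2 rose and 10 fell (median -1.40). Asz1 and Tdrd5, which act in the germ granules of fetal prospermatogonia, fell by 3.40 ± 0.26 and 3.24 ± 0.73. Tdrd6, a component of the chromatoid body of spermatids, read 10.53 and 10.47 on the mature arrays and 6.44 and 6.74 on the gonad arrays, a rise of 3.91 ± 0.13. The other one that rose, named after its value was seen, was Dnmt3l (2.63).

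**Figure D4:**
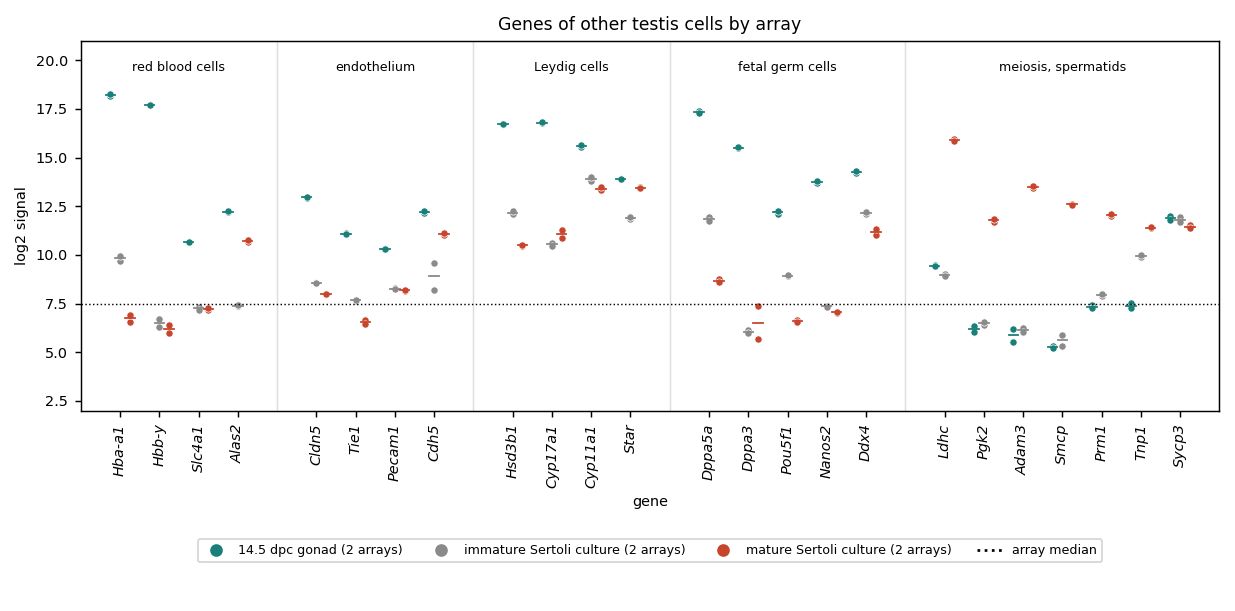
Log2 signal of 24 genes of red blood cells, endothelium, Leydig cells, fetal germ cells and later germ cells on each array of the gonad (green), the immature cultures (grey) and the mature cultures (red), with a short line at the mean of 2 arrays and a dotted line at the array median. The first 4 classes are highest in the gonad, and 6 of the 7 later germ cell genes are highest in the mature cultures, Sycp3 being the exception.

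Genes that mark fetal growth were lower. Of 20 imprinted and growth genes tested (22 listed), 14 fell and 0 rose (median -2.40). For 4 of the 20 the mature mean lay under the array median, so they needed the gonad arrays to enter and a fall is partly how they entered. H19, the imprinted noncoding RNA, read 10.36 and 10.55 on the mature arrays and 17.49 and 17.58 on the gonad arrays, a fall of 7.08 ± 0.09 (adjusted p = 8.15e-11), and the immature arrays lay between at 15.17 and 15.38. Igf2, its imprinted neighbour and a fetal growth factor, read 6.85 and 6.85 on the mature arrays and 11.36 and 11.14 on the gonad arrays, a fall of 4.40 ± 0.17. Dlk1, a Notch-related factor of fetal stroma, read 11.25 and 11.29 on the mature arrays and 17.10 and 17.17 on the gonad arrays and fell by 5.87 ± 0.06. None of these genes overlapped between groups, as 93.5% of all genes did not, and Igf2 was under the array median on both mature arrays. Mest and Cdkn1c, a growth inhibitor of the CIP/KIP family, fell by 6.50 ± 0.06 and 5.57 ± 0.11.

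Of 15 genes of the Lin28 and Igf2bp group, a set that is high in fetal tissue, 13 fell and 0 rose (median -3.21). The set holds RNA-binding proteins and targets of the let-7 microRNAs, together with H19, Igf2 and Dlk1. These last 3, given above, were its largest falls. H19 and Dlk1 were counted among the imprinted genes too, so the 2 lists are not separate results. Lin28b, which blocks let-7 maturation, read 8.24 and 8.14 on the mature arrays and 11.51 and 11.50 on the gonad arrays, a fall of 3.31 ± 0.71 (adjusted p = 0.00214), and the immature arrays read 11.42 and 11.53. Hmga2, a chromatin protein and let-7 target, fell by 2.46 ± 0.06. In the list of DNA methylation and chromatin genes 8 of 16 fell and 2 rose (median -1.08). Tet1, which oxidises methylated cytosine, and Dnmt3b, a de novo methyltransferase, fell by 4.66 ± 0.08 and 2.89 ± 0.06. Lmna, the lamin of differentiated cells, read 16.69 and 16.74 on the mature arrays and 13.29 and 13.39 on the gonad arrays, a rise of 3.38 ± 0.08, and the other rise was Dnmt3l.

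Cell division genes were lower by small steps. Of 38 tested (40 listed), 31 were called lower and 4 higher, where 46.0% and 36.9% of all genes were, but only 10 fell by 1 log2 unit or more and 0 rose (median -0.69). Mki67, a marker of cycling cells, read 14.72 and 14.70 on the mature arrays and 15.48 and 15.49 on the gonad arrays. Both groups were bright, with the mature arrays lower by 0.77 ± 0.04 (adjusted p = 3.65e-07). Mcm2 and Mcm5, of the replicative helicase, and Bub1, a spindle checkpoint kinase, fell by 1.62 ± 0.09, 1.37 ± 0.09 and 1.45 ± 0.08. The 4 called higher, named after their values were seen, were Rrm2, Foxm1, Cdk1 and Tpx2, by 0.81, 0.24, 0.23 and 0.20. Among 19 inhibitors and p53 targets, 9 rose and 2 fell (median 0.60). Cdkn1a, the inhibitor p21, read 14.34 and 14.24 on the mature arrays and 10.89 and 10.83 on the gonad arrays, a rise of 3.43 ± 0.07, and the immature cultures read 13.78 and 13.65. Cdkn2b and Cdkn2a, neighbouring inhibitors that accumulate in culture, rose by 4.20 ± 0.05 and 1.31 ± 0.08, and the part of culture in these rises was not tested. Cdkn1c, given above, and Sesn1, a p53 target named after its value was seen, were the 2 that fell, Sesn1 by 1.13.

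Contractile genes were higher in the mature cultures. Of 17 smooth muscle and peritubular genes tested, 13 rose and 0 fell (median 2.68). Acta2, smooth muscle actin, read 18.58 and 18.58 on the mature arrays and 15.97 and 15.82 on the gonad arrays, a rise of 2.68 ± 0.10, and 18.41 and 18.39 on the immature arrays. Cnn1, calponin, read 16.84 and 16.81 on the mature arrays and 10.53 and 10.31 on the gonad arrays, a rise of 6.40 ± 0.08 (adjusted p = 6.34e-11), and Actg2, enteric actin, rose by 6.32 ± 0.06. Tagln, transgelin, rose by 4.10 ± 0.12 and differed from the immature cultures by 0.05 ± 0.12 (adjusted p = 0.74). Peritubular cells and cultured fibroblasts both express these genes, and the part of such cells was not tested.

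Fibrillar matrix genes rose in 13 of 28 tested and fell in 4 (31 listed, median 0.86). Col1a1, the main chain of collagen I, read 17.30 and 17.25 on the mature arrays and 16.29 and 16.22 on the gonad arrays, a rise of 1.02 ± 0.05. Lox, which crosslinks collagen, read 14.90 and 14.94 on the mature arrays and 8.83 and 8.85 on the gonad arrays, and S100a4, a fibroblast protein, 15.56 and 15.57 on the mature arrays and 9.21 and 9.05 on the gonad arrays. In both genes the gonad arrays stayed above the array median but far below the mature arrays, with rises of 6.08 ± 0.06 and 6.44 ± 0.06. Mfap5, of the elastic microfibrils, and Ccn5, a matricellular protein, rose by 5.74 ± 0.09 and 7.43 ± 0.12. The 4 that fell, named after their values were seen, were Lum, Eln, Col6a1 and Pdgfrb, by 4.83, 1.70, 1.62 and 1.23.

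Immediate early and stress genes rose in 18 of 21 tested and fell in 0 (median 2.46). Serum and tissue handling are known to induce such genes, and their part in these rises was not tested. Egr2, a zinc finger factor, read 13.21 and 13.13 on the mature arrays and 7.85 and 7.98 on the gonad arrays, a rise of 5.26 ± 0.44. Fosl1, a subunit of the AP-1 factor, read 11.14 and 11.17 on the mature arrays and 6.15 and 6.05 on the gonad arrays, a rise of 5.06 ± 0.07 (adjusted p = 1.38e-10). In both genes the mature arrays were well above and the gonad arrays near or under the median, and the mean of the immature cultures was within 1 log2 unit of the mature mean. Ier3, an early response gene, rose by 4.57 ± 0.07.

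Matrix proteases and their inhibitors rose in 15 of 20 tested and fell in 3 (median 2.02), and 6 of the 20 had a gonad mean under the array median. Those 6 needed the mature arrays to enter, so a rise is partly how they entered. Mmp3, stromelysin, read 9.35 and 9.54 on the mature arrays and 4.67 and 4.01 on the gonad arrays, a rise of 5.10 ± 0.18. Serpina3n, a serine protease inhibitor, read 14.23 and 14.16 on the mature arrays and 7.25 and 6.90 on the gonad arrays, a rise of 7.12 ± 0.11 (adjusted p = 1.43e-10). Mmp2, gelatinase A, fell by 4.01 ± 0.08. Serpine2 and Timp4, inhibitors named after their values were seen, fell by 3.58 and 1.21. The AP-1 site, whose letters are TGANTCA on both strands, was in 5 of 17 listed promoters of 250 bases (29.4%) and in 6.75% of 32851 mouse promoters. These promoters are shown because they are the largest-rising members that hold the site, which is in capitals; the window is the 250 bases before the start of the gene in GRCm38.p6 (RefSeq), read on the strand of the gene.
Mmp3 (chr9:7445572-7445821, plus strand): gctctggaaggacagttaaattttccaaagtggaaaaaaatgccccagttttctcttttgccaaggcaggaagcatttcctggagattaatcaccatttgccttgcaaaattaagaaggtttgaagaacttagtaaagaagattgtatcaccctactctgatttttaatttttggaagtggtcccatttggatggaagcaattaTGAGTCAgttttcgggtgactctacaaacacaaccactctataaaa
Mmp10 (chr9:7502092-7502341, plus strand): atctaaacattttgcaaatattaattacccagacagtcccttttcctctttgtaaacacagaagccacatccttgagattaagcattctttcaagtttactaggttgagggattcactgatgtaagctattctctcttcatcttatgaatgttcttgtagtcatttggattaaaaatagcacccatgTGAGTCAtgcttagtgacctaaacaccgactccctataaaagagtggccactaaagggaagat
The match ends 40 bases before the start in Mmp3 and 57 in Mmp10, the latter chosen for its promoter, with a rise of 3.72. A match is a description of the letters and not a bound site.

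Inflammatory factors rose in 18 of 22 tested and fell in 0 (28 listed, median 2.97), and 8 of the 22 had a gonad mean under the array median. Those 8 needed the mature arrays to enter, so a rise is partly how they entered. Ccl20, Cxcl2, Il1a, Il1b, Il1rn and Csf2 were listed but too dim to enter. Csf1, given above among the growth factors for spermatogonia, was counted in this list too. Ccl7, a monocyte chemokine, read 13.82 and 13.95 on the mature arrays and 6.74 and 6.52 on the gonad arrays, a rise of 7.25 ± 0.09 (adjusted p = 8.76e-11), and the immature cultures read 11.38 and 11.53. Macrophage genes rose in 10 of 23 and fell in 1 (median 0.80). Adgre1, the macrophage marker F4/80, read 8.39 and 8.44 on the mature arrays and 8.06 and 8.11 on the gonad arrays and was higher by 0.33 ± 0.12 (adjusted p = 0.0252), and the call was lost when any 1 of the 4 arrays was left out (adjusted p 0.0603 to 0.100). C1qa, a complement chain of macrophages, rose by 1.08 ± 0.17, Trem2, a phagocytic receptor, by 3.61 ± 0.08, and Clec4d, a lectin of myeloid cells, by 2.49 ± 0.25. Cx3cr1, a receptor of tissue macrophages, fell by 2.49 ± 0.16. The summed signal of 7 macrophage markers was 14.07 and 14.03 on the mature arrays and 13.36 and 13.31 on the gonad arrays, and their part in the inflammatory rises was not tested.

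Interferon response genes rose in 26 of 31 tested and fell in 0 (33 listed, median 2.52), and 5 of the 31 had a gonad mean under the array median. Those 5 needed the mature arrays to enter, so a rise is partly how they entered. Usp18, which removes Isg15 from proteins, read 12.03 and 12.01 on the mature arrays and 7.31 and 7.01 on the gonad arrays, a rise of 4.87 ± 0.10 (adjusted p = 7.03e-10), and the immature arrays read 11.95 and 12.09. H2-D1, a class I major histocompatibility chain, read 15.63 and 15.48 on the mature arrays and 10.61 and 10.49 on the gonad arrays, a rise of 5.01 ± 0.09, and the immature arrays lay between at 13.33 and 13.28. Xaf1, an interferon-induced gene of cell death, read 14.24 and 14.19 on the mature arrays and 9.02 and 9.06 on the gonad arrays, a rise of 5.18 ± 0.08. In Xaf1 the immature arrays were the lowest of the 3 groups at 7.33 and 7.41. Class I genes are members of a family of near copies, so the features may share signal.

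The interferon-stimulated response element, searched on both strands as GAAA, any 2 bases and GAAA, was in 11 of 30 promoters of listed genes (36.7%), which are promoters of 26 genes, and in 2.98% of 32851 promoters. Of the 11 genes with a match, 9 rose, and in the whole list 26 of 31 rose (83.9%), so this count does not set the genes with a match apart. These promoters are printed because they are the largest-rising listed members with a match, with the element in capitals and the window as above.
Oas1a (chr5:120907526-120907775, minus strand): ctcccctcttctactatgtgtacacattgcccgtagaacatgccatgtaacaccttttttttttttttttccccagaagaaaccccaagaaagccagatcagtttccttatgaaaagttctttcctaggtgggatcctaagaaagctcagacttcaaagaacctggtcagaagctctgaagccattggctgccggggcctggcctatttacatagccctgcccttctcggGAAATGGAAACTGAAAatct
Ifit1 (chr19:34640639-34640888, plus strand): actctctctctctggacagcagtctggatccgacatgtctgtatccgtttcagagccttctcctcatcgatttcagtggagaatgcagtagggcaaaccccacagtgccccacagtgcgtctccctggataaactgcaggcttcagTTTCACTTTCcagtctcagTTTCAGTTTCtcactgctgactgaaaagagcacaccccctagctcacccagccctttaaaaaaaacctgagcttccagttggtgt
Both hold 2 matches, which overlap in Oas1a. Oas1a, a sensor of double-stranded RNA, and Ifit1, which binds foreign RNA, were chosen for their promoters and rose by 4.09 ± 0.11 and 3.83 ± 0.07.

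**Figure D5:**
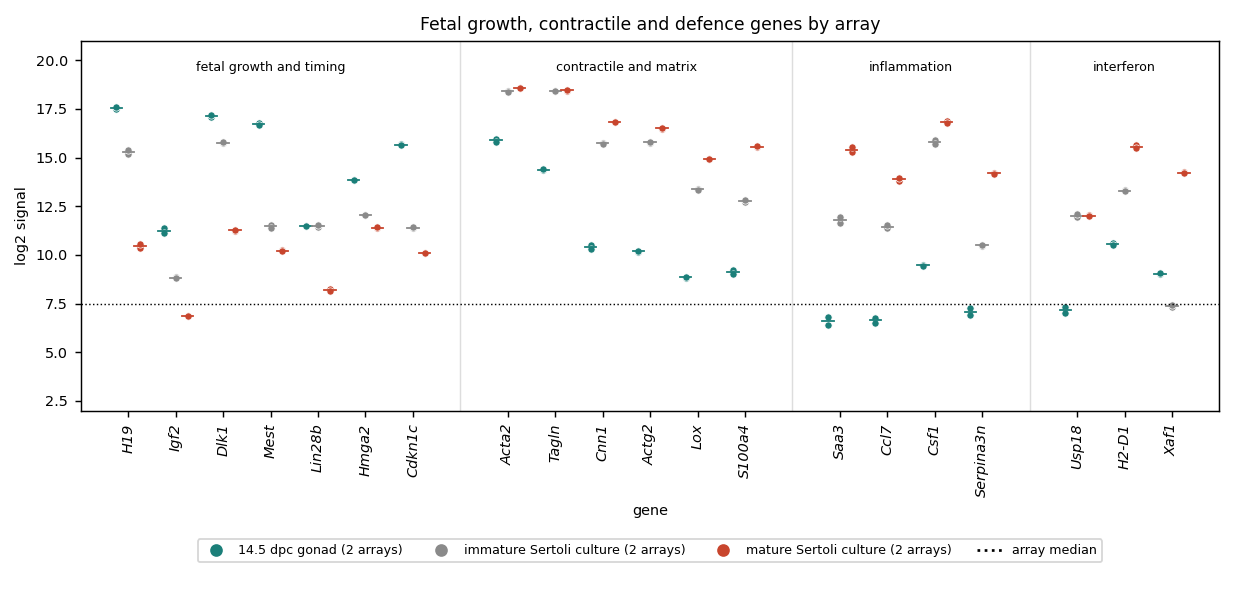
Log2 signal of 20 genes of fetal growth, of contraction and matrix, of inflammation and of the interferon response on each array of the gonad (green), the immature cultures (grey) and the mature cultures (red), with a short line at the mean of 2 arrays and a dotted line at the array median. The fetal growth genes are highest in the gonad, with Lin28b about level in the immature cultures, and the other 3 classes are lowest there, except that Xaf1 is lowest in the immature cultures.

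Cholesterol synthesis genes fell in 18 of 20 tested and rose in 1 (23 listed, median -1.74). Tm7sf2, a sterol reductase, read 11.15 and 11.08 on the mature arrays and 14.82 and 14.76 on the gonad arrays, a fall of 3.67 ± 0.06 (adjusted p = 2.81e-10). Dhcr7, a reductase of the last step to cholesterol, read 9.95 and 10.03 on the mature arrays and 12.54 and 12.56 on the gonad arrays, a fall of 2.56 ± 0.07, and Fdps, a farnesyl diphosphate synthase, fell by 2.34 ± 0.06. Both groups stayed above the array median for all 20 genes. Against the immature cultures, 11 of these 20 genes were lower by at least 1 log2 unit, where 8.82% of all genes were. The gene that rose, named after its value was seen, was Sc5d (1.68). The CCAAT box, which is bound by the factor NF-Y and is common near sterol genes, was in 16 of 19 listed promoters (84.2%) and in 33.8% of all 32851. These are shown for the same reason as above, with the box in capitals on either strand.
Tm7sf2 (chr19:6067851-6068100, minus strand): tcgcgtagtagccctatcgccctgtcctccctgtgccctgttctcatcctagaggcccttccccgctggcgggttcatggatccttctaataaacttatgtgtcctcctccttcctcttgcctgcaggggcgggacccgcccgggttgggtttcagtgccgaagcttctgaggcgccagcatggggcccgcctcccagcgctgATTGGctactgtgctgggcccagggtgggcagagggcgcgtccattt
Dhcr7 (chr7:143829964-143830213, plus strand): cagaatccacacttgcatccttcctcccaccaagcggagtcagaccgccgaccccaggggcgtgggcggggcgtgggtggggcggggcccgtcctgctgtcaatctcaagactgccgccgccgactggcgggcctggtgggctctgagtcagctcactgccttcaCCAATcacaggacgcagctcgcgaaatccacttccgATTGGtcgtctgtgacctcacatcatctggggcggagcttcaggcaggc
All 16 listed genes with a promoter sequence held the box, among them Sc5d, which rose. Of these 16, 15 rose or fell, where 37.5% of all genes tested did. No listed gene with a promoter sequence lacked the box, so the count cannot relate the box to the falls.

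Glycolysis and lactate genes, by which Sertoli cells feed lactate to germ cells, rose in 8 of 23 and fell in 1 (median 0.70). Pdk4, which holds pyruvate back from the mitochondria, read 11.95 and 11.73 on the mature arrays and 8.75 and 8.59 on the gonad arrays, a rise of 3.17 ± 0.09, and Pfkp, a phosphofructokinase, rose by 2.67 ± 0.06. Another feature of Pfkp was higher by 0.29. Aldoc, aldolase C, was the 1 that fell, by 2.80 ± 0.11. Lysosome and phagocytosis genes, by which Sertoli cells clear residual bodies, were called higher in 22 of 27 tested, where 36.9% of all genes were. Of the 27 tested, 8 rose (29.6%, against 18.3% of all genes), with a median of 0.69. Gpnmb, a glycoprotein of phagosomes and lysosomes, read 11.79 and 11.70 on the mature arrays and 6.60 and 6.50 on the gonad arrays, a rise of 5.20 ± 0.07. Ctsk, cathepsin K, and Atp6v0d2, a proton pump subunit, rose by 2.67 ± 0.07 and 2.37 ± 0.25.

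Retinoid genes rose in 4 of 20 tested and fell in 3 (median 0.43), shares near those of all genes tested (18.3% and 19.1%). Rarb, a retinoic acid receptor and its own target, read 11.75 and 11.60 on the mature arrays and 9.12 and 9.03 on the gonad arrays, a rise of 2.60 ± 0.08. Beside Rarb and Stra8, Dhrs3 and Cyp26a1 rose, by 2.14 and 1.70, and beside Cyp26b1, Rxrb and Crabp1 fell, by 1.20 and 1.04, these 4 named after their values were seen. Tight and gap junction genes rose in 8 of 22 and fell in 9 (median -0.32). Cldn11 was the largest rise in this list and Cldn5 the largest fall. Cldn5 was counted among the endothelial genes too, and Cdh1 among the spermatogonial genes. Keratins and mesothelial genes fell in 8 of 16 tested and rose in 4 (median -1.38). For 3 of the 16 the mature mean lay under the array median, so they needed the gonad arrays to enter and a fall is partly how they entered. Krt8, a keratin of simple epithelia, read 9.01 and 9.03 on the mature arrays and 12.70 and 12.68 on the gonad arrays and 16.18 and 16.33 on the immature arrays. The mature arrays were the lowest of the 3 groups, 3.67 ± 0.09 under the gonad and 7.24 ± 0.09 under the immature cultures. Bnc1, a mesothelial factor, fell by 3.78 ± 0.08. Des, the muscle filament desmin, rose by 3.42 ± 0.08, and the other rises, named after their values were seen, were Upk1b, Ezr and Vim, by 1.29, 1.24 and 1.05. In the list of ovarian fate and granulosa genes 3 of 13 rose and 5 fell (median -0.12). Runx1, which in the mouse is expressed in fetal granulosa cells, rose by 3.36 ± 0.08, while Lgr5 and Rspo1, of the R-spondin pathway of the ovary, fell by 4.45 ± 0.16 and 3.64 ± 0.08. The other members that passed, named after their values were seen, were Fst and Inhba, which rose by 3.15 and 1.70, and Amhr2, Bmp2 and Irx3, which fell by 1.79, 1.72 and 1.43.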

How the data were processed

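RNA was measured on 1-colour Agilent arrays, 1 sample per array. The authors deposited log2 signal for 62976 features on 13 arrays, brought to nearly the same distribution (sorted values agreed within 0.0222 between arrays). Limma is named, without a version, per the submitters' processing notes. Feature extraction and background correction are steps not given in the sources used here. The table holds no detection flags, and the number of arrays limits the precision. Names came from the platform annotation, updated through a RefSeq table of GRCm38.p6 (29036 features by accession, 2075 by symbol, 349 by older name, 5 kept). Each gene took its entering feature of highest 13-array mean. A single linear model over all 13 arrays was fitted in R 4.3.3 by limma 3.58.1 (lmFit, then eBayes, 6 residual and 2.34 prior degrees of freedom), two-sided, with Benjamini-Hochberg adjustment over 15664 genes. The members and the 32 lists (709 genes) were chosen with earlier results of these data known. Genes named were the 12 largest rises and 12 largest falls (clone and predicted names left out), the 3 most different called members of each list and a fixed set of markers, 128 in all. The second contrast, mature minus immature Sertoli cultures, shares the mature arrays. Sums of marker signal were taken on the linear scale and given as log2. Alternatives changed the filter, the choice of feature, the arrays fitted, the variance model and the centring, left out 1 array or, as an addition made after seeing the data, took the run of sample titles as a block. The fit was tried on simulated data with independent noise of the fitted size. Of 50 changes at each size, it recovered 34 at 0.5 log2 units, 47 at 1, 48 at 2 and 50 at 4. It made 12 calls among 15464 unchanged genes. Far fewer genes were changed there than were called in the data, and the simulation cannot show whether replicate spread is technical.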

Additional observations from a re-analysis of the deposited data

How the results depend on the processing

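The number of genes called in mature against gonad was 12995. It was 8595 with a filter at the 75th percentile, where fewer genes were tested, 5868 when a difference of at least 1 log2 unit was required, and 12111 to 12147 with 1 replicate left out. For mature against immature cultures, 11051 genes were called. The count was 7313 with the stricter filter, 3353 with a difference of at least 1 log2 unit, 16629 when every feature was counted on its own, and 9642 to 10556 with 1 replicate left out. Among 128 named genes in mature against gonad, under 13 alternatives, 1644 of 1652 values kept their direction and their side of the threshold, 6 lost the call (Adgre1 in 4 and Gata4 in 2) and 2 gained it (both Fshr, adjusted p = 3.95e-05 with the 4 arrays alone and 0.0305 with array weights). Of 832 list counts, 17 moved by over 1.5 times. The rises among meiotic and spermatid genes were 13 in place of 22 with the 75th percentile filter. With that filter, which tests fewer genes, the rises were 9 in place of 15 among proteases, 5 in place of 10 among macrophage genes and 4 in place of 7 among growth factors for spermatogonia. The falls were 4 in place of 7 among hedgehog genes, 4 in place of 8 among keratins and mesothelial genes, 2 in place of 5 among ovarian genes and 3 in place of 5 among mature Sertoli genes. Centring on the median of tested genes moved the median difference from -0.12 to -0.06. With that centring, 3032 genes rose and 2757 fell in place of 2874 and 2994. Sample titles fall in 2 numbered runs, each with 1 array of every replicated group, but no label calls a run a batch. A fit with the run as a replicate block, chosen after seeing the data, called 13265 genes in mature against gonad and 11611 in mature against immature, and it changed no call among the named genes in mature against gonad. In mature against immature, Ddx4 and Runx1 gained a call with it. The differences between runs correlated across genes at 0.212 between mature and gonad, 0.228 between mature and immature and 0.135 between gonad and immature. Slides and labelling batches were not analysed here.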
